A study of Mus musculus with 6 samples.

Results

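Type 2 conventional dendritic cells (cDC2) of the lung were examined by droplet-based single-cell RNA sequencing in 6 aged male mice. A barcode was counted as a cDC2 when it held at least 1 UMI (unique molecular identifier, a counted RNA molecule) of Ptprc, the gene of the leukocyte antigen CD45, at least 2 of Cd209a, 1 of Flt3 and 5 of H2-Ab1, and none of Xcr1, Clec9a, Cd3e or Cd79a. Barcodes below 500 genes or 1000 UMIs, or above 15% mitochondrial UMIs, were left out. This rule found 297 cells among the 88616 barcodes that passed the same filters, out of 94392 deposited, and 32913 of the passing barcodes held a Ptprc UMI.

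All mice were C57BL/6 males of 21 months. The genotype behind the 3 p16-DTR-labelled libraries was p16-CreERT2/R26-LSL-DTR, in which a Cre recombinase under the p16 promoter, once activated by tamoxifen, switches on a diphtheria toxin receptor. The 3 control libraries came from p16-CreERT2 mice, which carry the recombinase without the receptor. Tamoxifen (5 days), a pause of 2 weeks, diphtheria toxin (5 days) and 2 further weeks without treatment were the same for all mice, and the study compared them to ask what the removal of p16-expressing cells does to the lung. Each library is 1 mouse and was loaded with 20000 cells from the CD45-negative gate of the sort and 9000 from the CD45-positive one, so the number of cDC2 per library carries no information on cDC2 per lung.

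Conventional dendritic cells take up antigen in the tissue, carry it to the draining lymph node and present it to T cells. The type 2 branch presents antigen mainly on MHC class II to CD4+ T cells, depends on the transcription factors IRF4 and KLF4 together with FLT3 ligand, and is marked in the mouse by SIRPα, CD11b and C-type lectins such as CD209a and CD301b. The type 1 branch (cDC1) depends on IRF8 and BATF3, carries XCR1 and CLEC9A, and presents antigen to CD8+ T cells.

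The p16-DTR-labelled libraries held 41, 62 and 49 cDC2 and the control libraries 46, 34 and 65. Their median depth was 31571, 28703 and 31869 UMIs per cell in the p16-DTR-labelled libraries and 32472.5, 33692 and 30165 in the controls, above the medians of 16555 to 17750 UMIs of Ptprc-positive barcodes. Summed over cDC2, a library held between 1232863 and 2152773 UMIs. No cDC2 barcode occurred in 2 libraries, while each pair of libraries shared 4 to 16 Ptprc-positive barcodes. No doublet caller was run beyond the 4 genes whose UMIs excluded a barcode.

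The targeted gene was higher, not lower, in the libraries meant to lose p16-expressing cells. Cdkn2a, the gene of p16 (ENSMUSG00000044303, chromosome 4, 89274471 to 89294653, GRCm38), was represented in cDC2 by 4, 6 and 7 UMIs in the p16-DTR-labelled libraries and by 0 in each of the 3 controls. The 17 UMIs lay in 13 of 152 cells, against 0 of 145 control cells, which by counting error alone allows up to 2.07% of cells with a UMI and sets no limit on cells that express the gene. The pooled Cdkn2a level of the p16-DTR-labelled libraries, the group that carries the toxin receptor, was 5.90 times a floor of 3 counts pooled over the control group. That floor covers the counting error of the controls alone. The error of the 17 UMIs and the spread between mice are left out, so the ratio is no lower bound. The gene was too low for the test across genes. Over all passing barcodes it was also higher in the p16-DTR-labelled libraries, at 7.66 against 2.20 counts per 1000000 UMIs (CPM), so every direction below holds for the libraries as labelled. The count of Cdkn2a covers all its transcripts, not that of p16 alone.

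The gate gave cells with the markers of cDC2. Sirpa, the gene of the inhibitory receptor SIRPα, had a mean of 214 CPM over the 6 summed libraries and a UMI in 99.3% of cDC2 of the p16-DTR-labelled libraries and 97.2% of control cDC2. Itgam, the gene of CD11b, reached 187 CPM against 39.4 in cDC1, and Klf4 reached 334 CPM against 257 in cDC1. These 3 genes do not set cDC2 apart from monocytes: in classical monocytes Sirpa had 306, Itgam 288 and Klf4 348 CPM, and in interstitial macrophages 518, 220 and 237. Irf4 had 47.5 CPM, against 8.45 in cDC1, 7.47 in classical monocytes and 10.9 in interstitial macrophages, each gated by its own genes in the same libraries (404, 1692 and 348 cells). Zbtb46, a transcription factor of conventional dendritic cells, stood at 81.3 CPM, between 106 in cDC1 and 6.31 in monocytes and 6.00 in interstitial macrophages. Irf8, the factor of cDC1, was at 62.8 CPM against 1220.5 in cDC1. Some markers are shared: Naaa, a lysosomal hydrolase listed for cDC1, lay between 138 and 185 CPM in cDC2, and Mgl2 (CD301b) at 543 CPM had 473 CPM in interstitial macrophages.

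**Figure D1:**
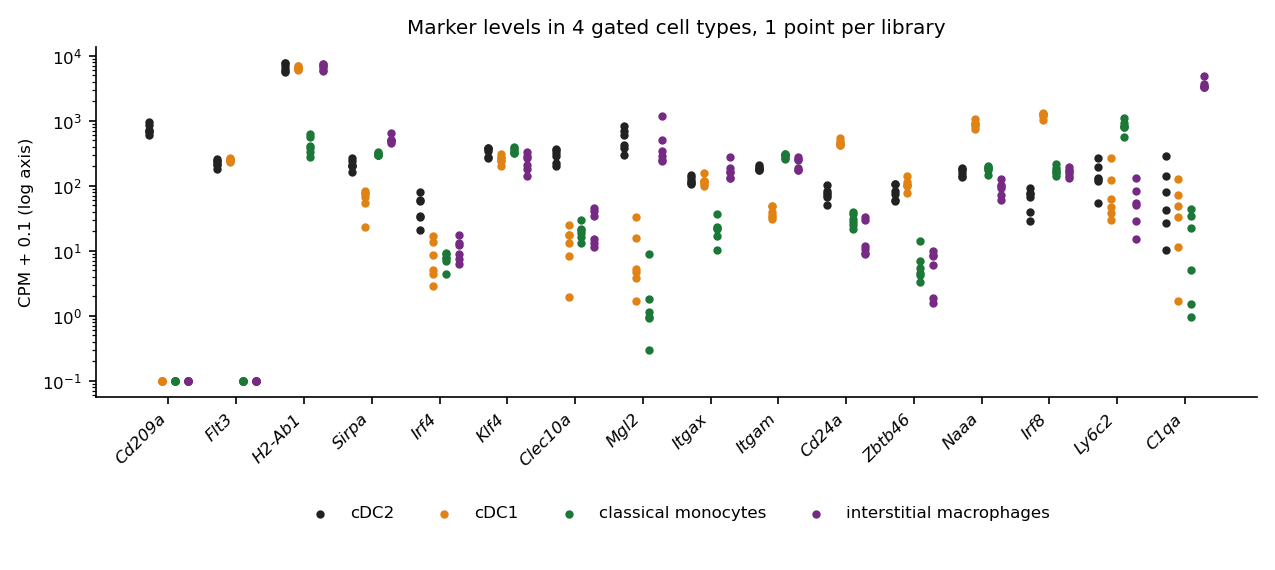
Summed counts of 16 marker genes as CPM plus 0.1 on a log axis, with 1 point for each of 6 libraries in cDC2, cDC1, classical monocytes and interstitial macrophages. Cd209a and Flt3 sit at the axis floor in types whose gate required 0 of them. Clec10a and Irf4 are higher in cDC2 than in the 3 other types in all 6 libraries.

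Among 6131 genes with at least 20 CPM in cDC2 over the 6 libraries, 179 were higher in cDC2 than in each of the 3 other types in all 6 libraries. These are a description, since the cells were chosen by their counts, and Cd209a, at 756 CPM, is a gate gene. The next gene by ratio was its paralog Cd209c at 25.9 CPM, against at most 0.478 in another type, and Cd209d, a further paralog, stood at 31.9 CPM against at most 5.50. Reads of near-identical paralogs may have been divided between these genes. The gates of the 3 other types allowed no Cd209a UMI, so genes that go with Cd209a can be lower there by the choice of cells. Clec10a, a galactose-type lectin of macrophages and dendritic cells, had 292 CPM against at most 26.6. Tnfsf9, the gene of the costimulatory ligand 4-1BBL, had 159 CPM against at most 22.8, and Malt1, a protease of NF-kB signalling, had 745 against at most 279. The other genes of the first 20 were Kcne3, Ddr1, Cd7, Gfra2, Wnt11, Irf4, Ctnnd2, Mmp25, Fcor, Ddit4, Ramp3, Trappc5, Ehf and Zbtb18.

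The 3 Cd209 genes lie on chromosome 8 (GRCm38, spans of the GENCODE annotation): Cd209a at 3743397 to 3748984, Cd209d at 3871824 to 3878555 and Cd209c at 3940222 to 3954746, all on the minus strand. Irf4 lies on chromosome 13 at 30749226 to 30766976 on the plus strand. The 150 bases before a transcription start of each, taken from RefSeq (GRCm38.p6) and written 5′ to 3′ on the gene's strand, are shown because these genes set cDC2 apart. Capitals mark the core GAGGAA bound by PU.1, the myeloid lineage factor, and the composite of GGAA, any 2 bases and GAAA bound by PU.1 together with IRF4 or IRF8, each searched on both strands. These RefSeq starts differ from the ends of the GENCODE spans: the window of Cd209c lies wholly inside the span given for that gene, those of Cd209d and Irf4 overlap the edge of theirs, and that of Cd209a lies before its span.

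Cd209a, chr8:3748985-3749134: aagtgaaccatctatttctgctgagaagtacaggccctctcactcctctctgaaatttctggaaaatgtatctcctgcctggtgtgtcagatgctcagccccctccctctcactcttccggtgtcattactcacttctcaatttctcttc
Cd209c, chr8:3946864-3947013: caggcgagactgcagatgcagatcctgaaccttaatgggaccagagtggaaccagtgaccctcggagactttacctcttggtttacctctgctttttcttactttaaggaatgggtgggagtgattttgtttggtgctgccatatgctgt
Cd209d, chr8:3878500-3878649: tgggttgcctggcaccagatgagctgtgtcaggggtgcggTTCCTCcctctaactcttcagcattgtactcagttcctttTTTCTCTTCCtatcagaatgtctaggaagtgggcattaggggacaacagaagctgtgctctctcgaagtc
Irf4, chr13:30749083-30749232: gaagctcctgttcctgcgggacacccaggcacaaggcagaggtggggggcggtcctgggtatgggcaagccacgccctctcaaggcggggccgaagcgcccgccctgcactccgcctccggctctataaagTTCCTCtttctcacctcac

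In these windows Cd209d held 1 match of each motif, without overlap, and Irf4 held 1 core match. All lay on the strand opposite the gene, so the capitals spell the reverse complement of the motif. Cd209a and Cd209c held neither, which says only that these letters are not in the window. Over 250 bases before the start, the core occurs in 23.3% of the 32851 promoters of the table and in 26.1% of 23 promoters of the 14 matched genes among the first 20. The composite occurs in 2.30% of all promoters and 4.35% of those 23.

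At the edge of the gate, the 22 cells with exactly 2 Cd209a UMIs had 2.96 Sirpa, 3.34 Klf4 and 2.56 Ly6c2 UMIs per 10000, and the 30 barcodes with 1 Cd209a UMI that met every other condition had 2.95, 3.09 and 3.07. The Flt3 threshold lay nearer to macrophages: the 32 cells with 1 Flt3 UMI had 4.90 C1qa UMIs per 10000, and the 35 barcodes with none had 6.55.

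The cells were not uniform. After each cell was thinned to 10000 UMIs, which left out 3 shallower cells, 109 of 294 cDC2 (37.1%) held Mgl2, the lectin CD301b, and 109 held Ly6c2, a surface antigen of classical monocytes. The 2 genes were seldom together: Ly6c2 was found in 14.7% of cells with Mgl2 and in 50.3% of cells without it. At the same depth Mgl2 was found in 0.852% of classical monocytes, 7.42% of cDC1 and 68.3% of interstitial macrophages, and Ly6c2 in 8.54% of interstitial macrophages and 14.8% of cDC1. The part of free RNA in these shares was not tested. C1qa, a complement gene of macrophages, was found in 7.14% of cDC2, and in 15.6% of those with Mgl2 against 2.16% of the rest. Ccr7, the receptor that leads mature dendritic cells to lymph nodes, was found in 7.82%, and Mki67 with Top2a, both of dividing cells, in 8 of 294 cells.

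Genes that went with each of these sides are given as a description of cells, with no test. In cells with Mgl2, the chemokine gene Ccl17 reached 550.5 CPM against 5.41 in cells without it, the elastase Mmp12 187 against 2.16, the fusion protein gene Dcstamp 125 against 0.541 and the chemokine gene Ccl22 124 against 4.32, with the same order in all 6 libraries. On the opposite side Plac8 stood at 315 against 1097 CPM and Cd7 at 31.2 against 219. In cells with Ly6c2, haptoglobin (Hp) reached 246 against 24.9 CPM, coagulation factor V (F5) 103 against 10.3, fibronectin (Fn1) 721 against 144, F13a1 819 against 190 and lysozyme (Lyz2) 8232 against 2324. These include genes of the classical monocyte list (Hp and F13a1), and Tnip3, an inhibitor of NF-kB signalling, lay the other way at 191 against 1142 CPM. In the 23 cells with Ccr7, the genes most raised beside Ccr7 included genes of endothelium. Cdh5 had 117 against 20.3 CPM and Egfl7 91.3 against 11.1. Cdh5 was higher in 3 and Egfl7 in 2 of the 4 libraries used. Whether the cells with Ccr7 were mature was not tested.

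With all 6 libraries, the share of cDC2 overlapped between the groups. Of Ptprc-positive barcodes, cDC2 made up 0.752%, 1.03% and 0.727% in the p16-DTR-labelled libraries and 0.911%, 0.822% and 1.18% in the controls. The means were 0.835% ± 0.166 and 0.972% ± 0.188 (SD, n = 3), and the exact two-sided permutation test gave p = 0.5, where 3 libraries against 3 cannot go below 0.1. Without p16-DTR replicate 2 the groups did not overlap, at 0.740% against 0.972% (exact permutation p = 0.2), and with the gate after thinning to 5000 UMIs the difference of -0.136 percentage points became -0.276. Barcodes of mixed type were also taken out of both cDC2 and the Ptprc-positive barcodes. The means were then 0.507% against 0.809% by the planned list, a difference of -0.301. By the narrower list they were 1.88% against 2.38%, a difference of -0.501, with overlap in both. The removal changed the number of Ptprc-positive barcodes as well, so these differences are not on the scale of -0.136. Of all conventional dendritic cells, taken as the cDC2 and cDC1 gates together, cDC2 made up 40.6%, 43.7% and 34.0% against 44.7%, 57.6% and 42.8%. The means were 39.4% ± 4.92 and 48.4% ± 8.09 (SD, n = 3; exact permutation p = 0.2), and the groups overlapped. They did not overlap without barcodes of mixed type, at 35.7% against 62.1% by the planned list and 40.9% against 49.1% by the narrower one (exact permutation p = 0.1 for each). The planned list left 1, 4 and 6 cDC2 beside 2, 7 and 10 cDC1 in the p16-DTR-labelled libraries. In the controls it left 5, 3 and 4 beside 2, 1 and 6, so its shares rest on few cells. That list took out any cell with at least 2 UMIs over the markers of another type. The markers held Ighm and Il7r, which had means of 125 and 32.7 CPM in cDC2 and were found in every library. A cell it took out therefore need not be of mixed type. Nor did the groups overlap without control replicate 3, at 39.4% against 51.1% (exact permutation p = 0.1), or without p16-DTR replicate 2, at 37.3% against 48.4% (exact permutation p = 0.2).

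Shares of cells with a given transcript were compared at 10000 UMIs per cell, for 8 transcripts or pairs. Irf4 was found in 41.5%, 33.3% and 47.9% of cDC2 in the p16-DTR-labelled libraries and in 17.4%, 23.5% and 18.5% in the controls. The groups did not overlap, with means of 40.9% ± 7.31 and 19.8% ± 3.28 (SD, n = 3), and the exact permutation test gave its smallest p of 0.1, or 0.4 after Benjamini-Hochberg adjustment over the 8. In cDC1 Irf4 was found in 7.77% of cells in the p16-DTR-labelled libraries and 3.03% in the controls, in the same order as in cDC2 but with overlap (exact permutation p = 0.2). The shares were 6.17% and 5.93% in classical monocytes and 6.25% and 8.73% in interstitial macrophages. Without thinning, those of monocytes were 17.4% and 12.3%, without overlap. Irf8 was found in 29.3%, 23.3% and 25% against 43.5%, 50.0% and 27.7%, with an exact permutation p of 0.2. Without thinning its shares were 42.9% and 61.7% on average, without overlap (exact permutation p = 0.1).

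Ccr7 was found in 2.44%, 3.33% and 8.33% of cDC2 in the p16-DTR-labelled libraries and in 8.70%, 8.82% and 13.8% of control cDC2, also without overlap and with an exact permutation p of 0.1 (adjusted 0.4). These shares rest on 1, 2 and 4 cells against 4, 3 and 9. Mgl2 was found in 34.1%, 35.0% and 50.0% against 23.9%, 32.4% and 43.1%, and C1qa in 14.6%, 3.33% and 10.4% against 6.52%, 5.88% and 4.62%; both overlapped. Ly6c2 was found in 39.0%, 35.0% and 25% against 45.7%, 41.2% and 38.5%. Its difference of -8.76 percentage points became 1.25 without thinning. Dividing cells were 2.36% and 2.73% on average, and their difference of -0.37 percentage points became 1.28 without thinning. Cdkn2a was held by 1 cell at this depth.

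**Figure D2:**
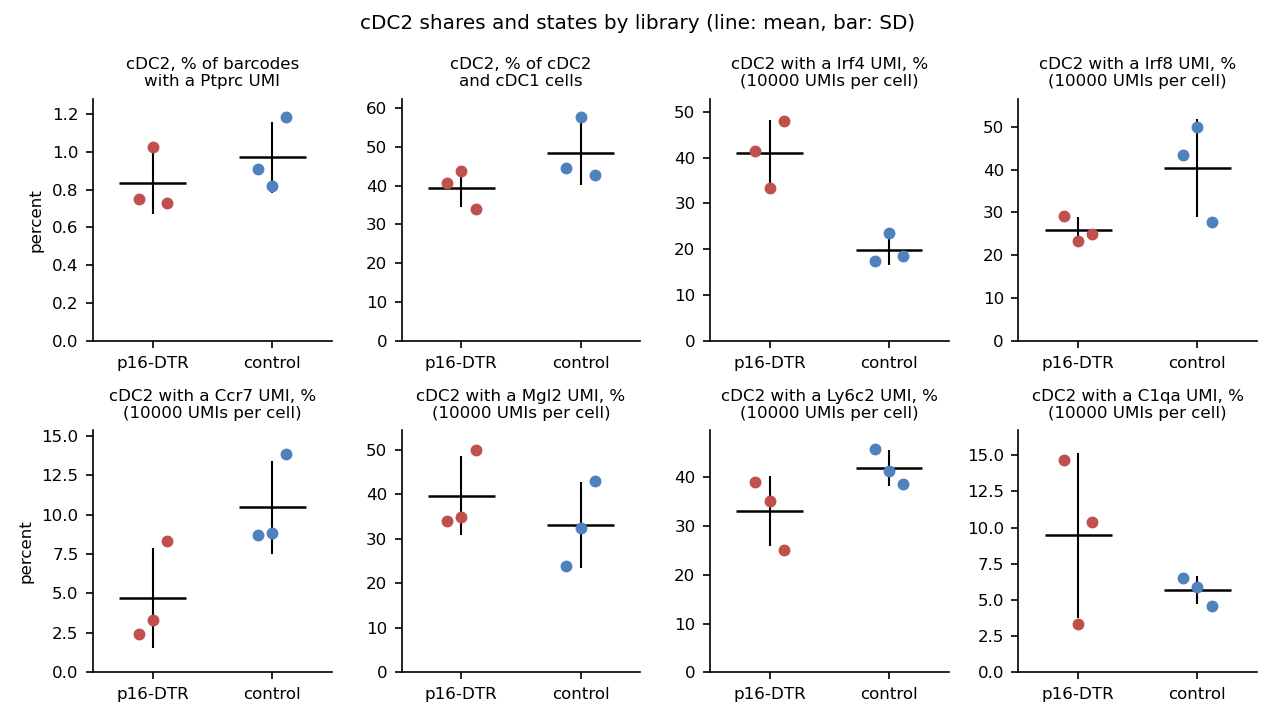
Percentages by library in 8 panels, with 1 point for each of 3 libraries per group, the mean as a line and the SD as a bar. The first panels give cDC2 among Ptprc-positive barcodes and among conventional dendritic cells, the others cDC2 with a UMI of a gene after thinning to 10000 UMIs per cell. The Irf4 and Ccr7 panels show groups that do not overlap.

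Expression was then compared between the groups on counts summed per library, with the edgeR quasi-likelihood test over 9475 genes, of which 9471 were outside the gate. The test called 0 genes (0%) at an adjusted p under 0.05. It gave an unadjusted p under 0.05 to 754 genes (7.96%), of which 369 (3.89%) were higher and 385 (4.06%) lower in the p16-DTR-labelled libraries. In 1374 genes (14.5%) the 3 values of one group all lay above those of the other, with 525 (5.54%) higher and 849 (8.96%) lower in the p16-DTR-labelled libraries. DESeq2, the alternative test, called 50 of the 6714 genes it adjusted (0.745%), 26 higher and 24 lower, and the 26 include H2-Ab1, which the gate used. All 50 had an unadjusted p under 0.05 in edgeR, where their adjusted p lay between 0.284 and 0.416, and in 49 the groups did not overlap. In simulated counts with the means, depths and spread of these cDC2 sums, edgeR recovered 30.5% of genes changed 2-fold and 84.8% of genes changed 4-fold, so a change near 2-fold was often not detectable with 3 libraries per group. There 10 of 123 edgeR calls and 24 of 139 DESeq2 calls were false. The genes are therefore described by their values.

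Among the transcription factors of dendritic cells, Irf4 stood at 59.8, 57.8 and 79.7 CPM in the p16-DTR-labelled libraries and at 20.8, 34.1 and 33.0 CPM in the controls. Every p16-DTR-labelled library was above every control. The log2 fold change was 1.21 (SE 0.23; edgeR adjusted p = 0.284), and DESeq2 called it with an adjusted p of 0.0189. With the gate applied after thinning to 5000 UMIs the log2 fold change was 0.53. Zbtb46 stood at 82.1, 105 and 107 CPM against 59.5, 58.4 and 75.3 (log2 fold change 0.64, SE 0.17; edgeR adjusted p = 0.358). Irf8 lay in the opposite order, at 28.8, 38.9 and 66.9 CPM against 74.1, 77.1 and 91.0 (log2 fold change -0.81, SE 0.28). Cebpb, a bZIP factor of monocytes and macrophages, stood at 460, 382 and 323 CPM against 771, 599 and 766 (log2 fold change -0.84, SE 0.15). Neither of these groups overlapped, and the edgeR adjusted p was 0.511 for Irf8 and 0.284 for Cebpb, which DESeq2 called. Of the 19 factors tested, 7 had an unadjusted p under 0.05 and were higher and 3 were lower, where 3.89% and 4.06% of all genes did so. The median log2 fold change was 0.23, beside -0.003 over all genes tested outside the gate.

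Of 13 genes of MHC class II presentation, 8 were higher in the p16-DTR-labelled libraries at an unadjusted p under 0.05 and none lower, against 3.89% higher among all genes, and edgeR called none. H2-Aa, the α chain of I-A, had 8576, 9426 and 8663 CPM against 6922, 7238 and 7841 (log2 fold change 0.31, SE 0.08; edgeR adjusted p = 0.333). H2-Eb1, the β chain of I-E, had 6474, 7107 and 6920 CPM against 5040, 5123 and 6029 (log2 fold change 0.38, SE 0.09). Cd74, the invariant chain that guides class II molecules to the endosome, had 18530, 20342 and 19767 CPM against 14691, 15789 and 18027 (log2 fold change 0.31, SE 0.09). None of the 3 overlapped. H2-Ob, a chain of the peptide-loading regulator H2-O, had 66.2, 62.6 and 58.2 CPM against 43.2, 34.1 and 42.7. DESeq2 called H2-Aa and H2-Eb1 and called neither Cd74 nor H2-Ob. Some of these directions turned with the choice of cells. With the gate after thinning to 5000 UMIs, the log2 fold change of H2-Ob was -0.0491. With the planned removal of mixed barcodes, which left 1 to 6 cells per library, it was -0.0577 for Cd74 and -0.0691 for H2-Aa. That removal used markers that cDC2 also held, such as Ighm and Il7r, so these values do not describe cDC2 freed of other cells.

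Of the 13, 11 had a positive log2 fold change, beside 49.6% of all genes tested outside the gate, and the median was 0.31. H2-Eb2 had the lowest value, -0.47. The sum of the list was 37520, 41067 and 39517 CPM in the p16-DTR-labelled libraries and 30440, 31665 and 35777 CPM in the controls. H2-Ab1 itself, which the gate required, had 7058, 7742 and 7777 CPM against 5633, 5928 and 6370; it was part of the fit, but its difference is no test, since its counts chose the cells. For class I presentation, 3 of 16 genes had an unadjusted p under 0.05, all higher (3.89% over all genes), with a median of 0.14. B2m, the light chain, had a mean of 1967 CPM ± 38.1 against 1766 ± 130 (SD, n = 3), and H2-T23, a nonclassical class I gene, 334 ± 11.1 against 269 ± 12.9. After the planned removal of mixed barcodes the log2 fold change of B2m was -0.255.

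Among receptors that place the cells, Gpr183 (EBI2), an oxysterol receptor that positions cDC2, had 135, 162 and 152 CPM in the p16-DTR-labelled libraries and 81.4, 77.9 and 90.6 in the controls. The 2 groups stood well apart, with a log2 fold change of 0.88 (SE 0.13; edgeR adjusted p = 0.284, DESeq2 adjusted p = 0.00201). Ccr7 had 3.60, 7.02 and 8.15 CPM against 32.0, 10.5 and 19.97 (log2 fold change -1.68, SE 0.46), from 15 of 152 and 29 of 145 cells. Ccr2, the receptor that brings monocytes and precursors of dendritic cells into tissue, had 607, 563 and 420 CPM against 943, 846 and 665 (log2 fold change -0.59, SE 0.17). Ccl4, an inflammatory chemokine, had 229, 305 and 306 CPM against 172, 71.4 and 138 (log2 fold change 1.16, SE 0.28). Ccl6 had a mean of 490 CPM ± 45.2 against 620.5 ± 30.8 (SD, n = 3), and with the gate after thinning its log2 fold change turned to 0.12. None of these 5 genes overlapped between the groups and none was called by edgeR (adjusted p from 0.284 to 0.475). In the chemokine list 3 of 17 genes had an unadjusted p under 0.05 and were higher, and 3 were lower (3.89% and 4.06% over all genes), with a median of 0.19.

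**Figure D3:**
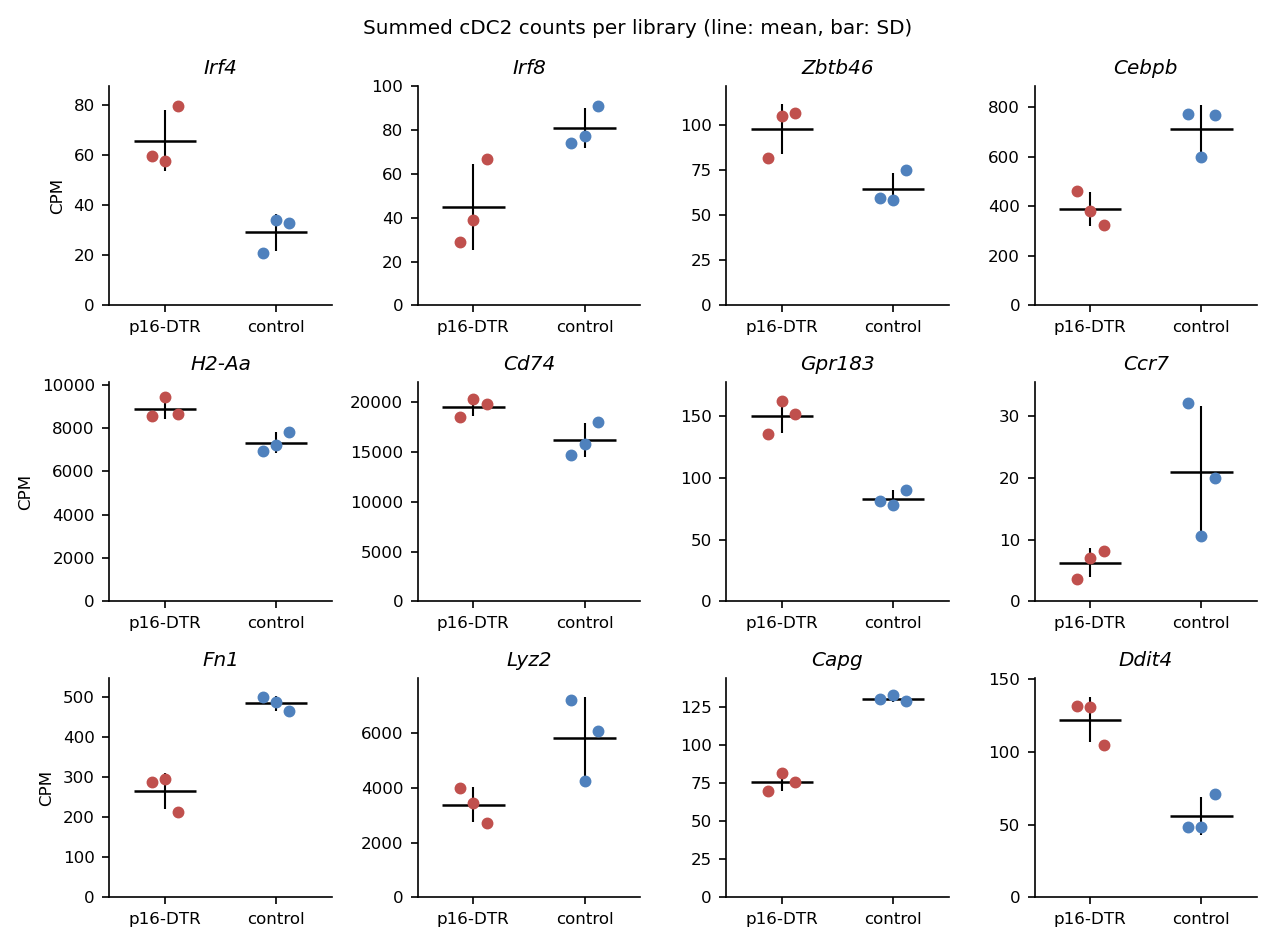
CPM of 12 genes in cDC2 summed by library, with 1 point for each of 3 libraries per group, the mean as a line and the SD as a bar, on axes that start at 0. In all 12 panels the groups do not overlap; Irf4, Zbtb46, H2-Aa, Cd74, Gpr183 and Ddit4 are higher and Irf8, Cebpb, Ccr7, Fn1, Lyz2 and Capg lower in the p16-DTR-labelled libraries.

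Several genes that marked the cells with Ly6c2 lay lower in the p16-DTR-labelled libraries. Fn1 had 288, 295 and 214 CPM against 501, 488 and 465 (log2 fold change -0.83, SE 0.13; edgeR adjusted p = 0.284, DESeq2 adjusted p = 6.94e-05). Lyz2 had 3976, 3435 and 2710 CPM against 7173, 4222 and 6061 (log2 fold change -0.75, SE 0.20). Neither group overlapped, and after the planned removal of mixed barcodes the log2 fold change of Fn1 was 0.0786. F5 had a mean of 22.2 CPM ± 7.77 against 71.5 ± 27.3 (SD, n = 3), Mgst1, a microsomal glutathione transferase, 19.2 ± 6.83 against 58.5 ± 13.5, and Gsr, glutathione reductase, 95.4 ± 26.6 against 195 ± 52.2. Of the 15 genes other than Ly6c2 that led the Ly6c2 side, 14 had a negative and 1 a positive log2 fold change, with a median of -0.85, and 10 had groups without overlap that were lower (background 8.96%). Ly6c2 itself overlapped, at 194, 129 and 53.5 CPM against 131, 118 and 268, and its log2 fold change turned to 0.0469 without control replicate 3 and to 0.29 with the gate after thinning.

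On the Mgl2 side, 13 of the 15 leading genes other than Mgl2 had a positive log2 fold change, with a median of 0.47, and 1 of the 15 was higher without overlap, beside 5.54% of all genes. Of the 16 genes lower in cells with Mgl2, 7 had a positive log2 fold change, with a median of -0.03. Of the 16 genes lower in cells with Ly6c2, 13 had a positive one, with a median of 0.43. Mgl2 had 423, 709 and 832 CPM against 380, 300.1 and 612. These lists were taken from the same cells and carry no test. The summed markers of classical monocytes were 842, 676 and 496 CPM in the p16-DTR-labelled libraries and 1072, 701 and 1002 in the controls, with none of the 6 at 0 in any library. Those of interstitial macrophages were 1277, 229 and 1054 against 1067, 333 and 380 CPM. Nonclassical monocyte markers summed to 122, 221 and 205 against 193, 249.01 and 309 CPM and neutrophil markers to 689, 49.7 and 43.1 against 401, 63.3 and 829. Plasmacytoid dendritic cell markers summed to 7.20, 7.02 and 116 against 4.49, 2.43 and 72.0 CPM. Alveolar macrophage markers summed to 58.3, 69.1 and 163 against 400, 74.6 and 190 CPM. Of the neutrophil genes tested, 0 of 5 had a positive log2 fold change (median -0.999), of the nonclassical monocyte genes 1 of 5 (median -0.60) and of the classical monocyte genes 1 of 6 (median -0.40). The macrophage genes lay the other way, with 5 of 6 positive and a median of 1.08. Their part in the gene differences was not tested.

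Positive log2 fold changes were 9 of 21 among lectins and Fc receptors, 7 of 19 among innate sensors and adaptors and 5 of 14 among cytokines, where 49.6% of all genes tested outside the gate were positive. Of the 21 lectins and Fc receptors, 4 had an unadjusted p under 0.05, all lower (4.06% over all genes), and the median was -0.26. Clec4a3, an inhibitory C-type lectin, had a mean of 128 CPM ± 13.6 against 186 ± 16.4 (SD, n = 3). Of 14 cytokines, 4 were lower at that p and none higher, with a median of -0.16: Tgfb1 had 194, 228 and 209 CPM against 293, 282 and 289, and Osm, oncostatin M, 31.0, 29.7 and 35.5 against 62.3, 50.3 and 48.8. The values of these 3 genes did not overlap between the groups. Tlr4, the lipopolysaccharide receptor, had 8.64, 9.72 and 9.89 CPM against 23.03, 21.1 and 19.97, and was the 1 of 19 innate sensors and adaptors with such a p. Csf1r, the receptor of macrophage growth factor, had 175, 144 and 180 CPM against 257, 211 and 259, and Sirpa 202, 163 and 205 against 241, 208 and 267. The log2 fold change of Csf1r was 0.00781 after the planned removal of mixed barcodes. Of the 18 surface and growth factor receptors, 2 had an unadjusted p under 0.05, both lower, and the median was -0.05. edgeR called none of these genes (adjusted p from 0.304 to 0.620).

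The glucocorticoid-induced list had the highest median of the 19 functional lists, 0.51 over 13 genes, with 5 higher and 1 lower at an unadjusted p under 0.05 (3.89% and 4.06% over all genes). Ddit4, an inhibitor of mTORC1 that glucocorticoids and stress induce, had 132, 131 and 105 CPM against 48.3, 48.7 and 71.1 (log2 fold change 1.15, SE 0.19; edgeR adjusted p = 0.284). Tsc22d3, the gene of GILZ, had 232, 218 and 263 CPM against 119, 131 and 199. Mt1, a metallothionein, had 492, 382 and 363 CPM against 323, 281 and 283. These 3 did not overlap. The 1 lower member was Sgk1, with a log2 fold change of -0.75 (SE 0.17; DESeq2 adjusted p = 0.0489). Per1, Klf9 and Mt2 had log2 fold changes of 0.05, 0.15 and -0.03. Interferon response genes had a median of 0.32 over 26 genes, and 3 of them, all higher, had such a p. Oasl2 had 86.4, 63.2 and 50.0 CPM against 32.6, 25.1 and 48.3, without overlap.

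**Figure D4:**
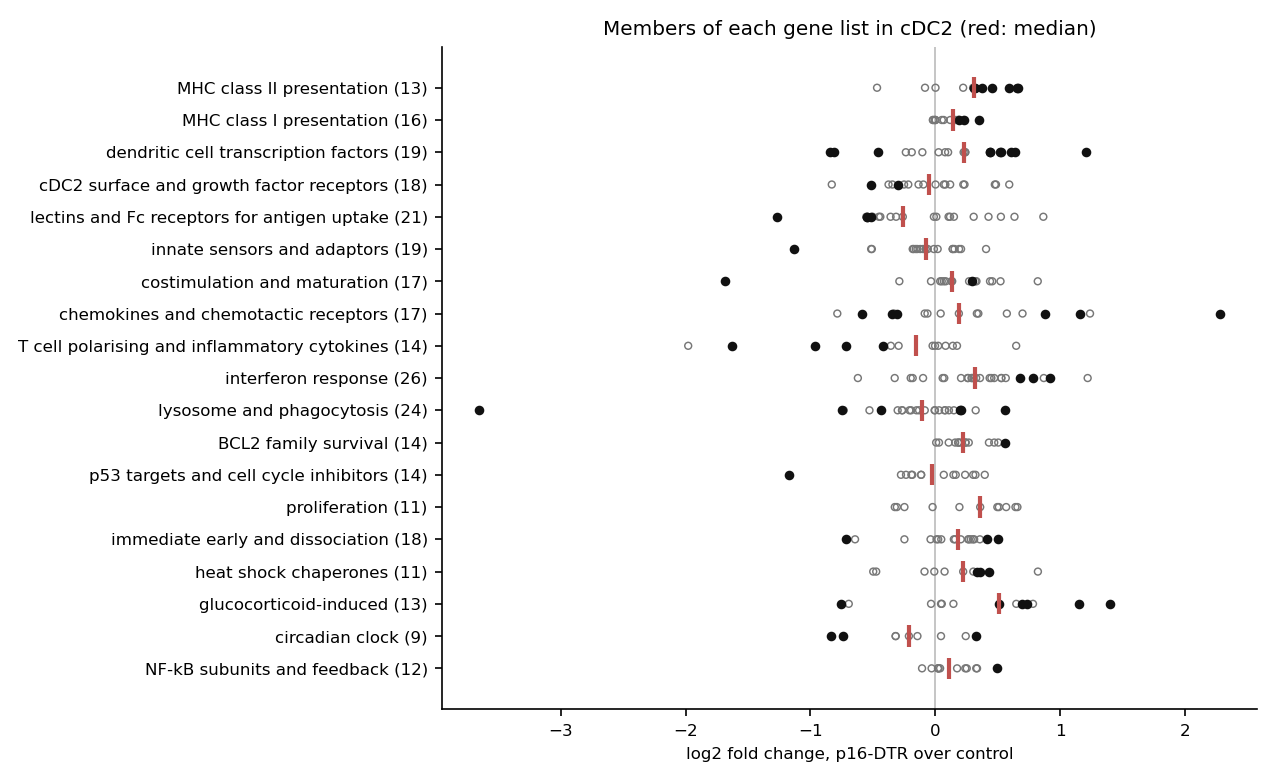
Log2 fold change, p16-DTR over control, for each tested member of 19 gene lists in cDC2, with the number tested in brackets. Filled points have an unadjusted edgeR p under 0.05, open points do not, and the red line is the list's median, from -0.26 for lectins and Fc receptors to 0.51 for glucocorticoid-induced genes.

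In the survival, proliferation and p53 lists 2 genes had an unadjusted p under 0.05, which 7.96% of all genes had. All 14 BCL2 family genes had a positive log2 fold change, beside 49.6% of all genes tested outside the gate, with a median of 0.22, and 1 of 14 was higher at that p (3.89% over all genes). That gene was Pmaip1 (NOXA), at 308, 235 and 257 CPM against 145, 182 and 227, while the most abundant member, Mcl1, had 925, 1023 and 890 against 828, 902 and 830. None of the 11 proliferation genes tested had such a p, and Mki67 had 31.7, 50.2 and 38.4 CPM against 23.6, 12.98 and 39.95. Among p53 targets and cell cycle inhibitors 1 of 14 was lower and none higher: Gadd45a had 5.04, 4.86 and 4.66 CPM against 10.7, 8.92 and 13.9. Cdkn1a, the gene of p21, had 368, 338 and 341 CPM against 490, 367 and 403 and overlapped (log2 fold change -0.23, SE 0.11; edgeR adjusted p = 0.664); after the planned removal of mixed barcodes its log2 fold change was 0.49.

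Stress genes that tissue dissociation can raise were also compared. Over all genes 3.89% were higher and 4.06% lower at an unadjusted p under 0.05, and the counts of lists given next stand beside those shares. Of 18 immediate early genes, 2 were higher and 1 lower at that p. The lower one, Nr4a2, had a log2 fold change of -0.72 (SE 0.17; DESeq2 adjusted p = 0.0149). Zfp36, a protein that destabilises cytokine mRNA, had 1031, 1016 and 908 CPM against 614, 756 and 773, and Fos overlapped at 1866, 1710 and 1769 against 1268, 1296 and 1840. Of 11 heat shock genes 3 were higher at it, among them Hspa8 with 1577 CPM ± 233 against 1263 ± 51.5 and Hsp90ab1 with 1256 ± 183 against 1023 ± 69.3 (SD, n = 3). Tnfaip3 (A20), a feedback inhibitor of NF-kB, had 509, 577 and 517 CPM against 332, 472 and 365 and was the 1 of 12 NF-kB genes with such a p. Hspa8, Hsp90ab1 and Tnfaip3 did not overlap between the groups. In the clock list, 1 of 9 was higher and 2 were lower: Bhlhe40 had 319, 325 and 306 CPM against 248.8, 291 and 239, and Nfil3 87.1, 91.8 and 61.7 against 172, 109 and 157. With the gate after thinning to 5000 UMIs the log2 fold change of Tnfaip3 was -0.0062 and that of Bhlhe40 -0.22. Rbm3 and Pdpk1, the most abundant of 4 genes listed from earlier results of these data, had 452 against 509 and 67.7 against 56.6 CPM on average, and none of the 4 had such a p.

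In the lysosome and phagocytosis list, 3 of 24 genes were higher and 3 lower at an unadjusted p under 0.05 (3.89% and 4.06% over all genes), with a median of -0.11. Cst3, cystatin C, an inhibitor of lysosomal proteases, had 4605, 4336 and 5712 CPM against 3119, 3540 and 3520 (log2 fold change 0.56, SE 0.11; edgeR adjusted p = 0.284, DESeq2 adjusted p = 0.000507). Cd83, a maturation antigen, had 650.1, 599.5 and 696 CPM against 450.4, 573 and 596 and was the 1 higher of 17 costimulation genes at that p, with Ccr7 the 1 lower and a median of 0.14.

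The genes with the smallest p-values in cDC2 included further ones with tight groups. Dab2, an endocytic adaptor, had 199, 185 and 200 CPM in the p16-DTR-labelled libraries against 132, 114 and 127. Slamf9, a receptor of the SLAM family, had 109, 115 and 122 against 68.0, 76.2 and 70.6. Capg, an actin-capping protein, had 69.8, 81.5 and 76.2 against 130, 133 and 129. The groups stood apart in all 3. Tnfaip2 had 65.5, 53.5 and 54.1 against 131, 131 and 97.1 CPM, and Odf2 21.6, 23.8 and 31.4 against 62.9, 54.3 and 62.2. Ccnd1, the gene of cyclin D1, had 248, 352 and 257 against 139, 122 and 170. edgeR gave each of these 6 an adjusted p of 0.284, and DESeq2 called all 6.

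Other genes with large log2 fold changes rested on few cells. Pcdh7, a protocadherin, had 0, 1.62 and 0.582 CPM against 16.3, 43.0 and 29.7, but its 146 control UMIs lay in 4 cells, and 1 cell held 43.8% of them. Krt19, a keratin of epithelium and mesothelium, had 93 control UMIs in 3 cells. Farp1 and Emp2 had 90 and 88 control UMIs, of which 1 cell held 33.3% and 35.2%. Micu3 was spread more widely, over 41 control cells and 23 cells of the p16-DTR-labelled libraries, with a log2 fold change of -1.54 (SE 0.26). Dpp6 lay the other way, with 25.2, 52.9 and 73.3 CPM against 5.62, 1.62 and 0, from 16 and 3 cells. Cbr2, an enzyme of airway epithelium, had 2.88, 5.40 and 4.07 CPM against 6.18, 164 and 95.2, and was called by edgeR when control replicate 1 was left out (log2 fold change -4.87, adjusted p = 0.0236). Markers of fibroblasts summed to 161, 28.6 and 127 CPM against 536, 738 and 19.5, those of endothelium to 153, 131 and 448 against 56.2, 395 and 69.2, and those of epithelium lay between 130 and 238 CPM, and of the 5 genes of each list none was at 0 in any library except Cldn18 of epithelium, at 0 in p16-DTR replicate 3 and control replicates 1 and 2. Their part in these genes was not tested.

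Without the cells that held at least 3 UMIs of another type's narrower markers (7, 8 and 9 cells of the p16-DTR-labelled libraries and 8, 9 and 13 control cells), edgeR called 1 gene. That gene was Dpp6, with a log2 fold change of 6.09 and an adjusted p of 0.0284.

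The group difference in cDC2 was compared with that in cDC1 and in classical monocytes of the same libraries, as an interaction term with the library as a block. edgeR called 0 of 10543 genes (0%) against cDC1, where 616 (5.84%) had an unadjusted p under 0.05. It called 0 of 12123 genes (0%) against monocytes, where 619 (5.11%) had such a p. In simulated counts the interaction test against cDC1 recovered 7% of 2-fold and 52% of 4-fold differences. The simulation gave both types the spread of cDC2 and no effect shared by library, so recovery in the real counts may differ. Ccl4 lay among the smallest p-values against cDC1: in cDC1 its mean was 171 CPM in the p16-DTR-labelled libraries and 343 in the controls, opposite in order to cDC2, and the difference of the log2 fold changes was 2.23 (SE 0.31; edgeR adjusted p = 0.158). Gpr183 had a log2 fold change of 0.16 (SE 0.10) in cDC1 and 0.23 (SE 0.18) in monocytes, beside 0.88 in cDC2, and the interaction had an edgeR adjusted p of 0.658 and 0.814.

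Cebpb had -0.05 (SE 0.33) in cDC1 and 0.02 (SE 0.06) in monocytes beside -0.84 in cDC2, with adjusted p of 0.812 and 0.469 for the edgeR interaction. Tlr4 had 0.21 (SE 0.36) and 0.34 (SE 0.13) beside -1.13, with 0.745 and 0.313. Irf4 had 1.09 (SE 0.53) and 0.33 (SE 0.26) beside 1.21, with 0.998 and 0.794. Other genes went the same way in all 3 types. Ddit4 had a log2 fold change of 1.31 (SE 0.35) in cDC1 and 1.30 (SE 0.17) in monocytes beside 1.15 in cDC2, and Slamf9 0.70 (SE 0.31) and 1.16 (SE 0.35) beside 0.73. Tested alone in the same way, cDC1, classical monocytes and interstitial macrophages also had 0 genes called by edgeR. There 592 of 10451, 1054 of 12245 and 490 of 9354 genes had an unadjusted p under 0.05.

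**Figure D5:**
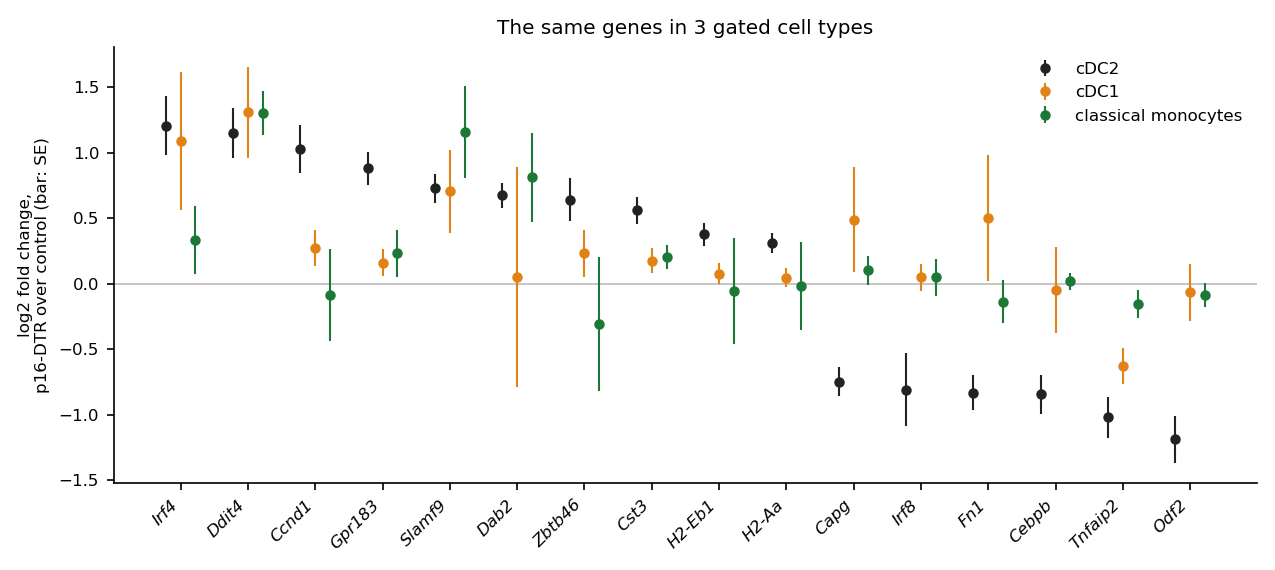
Log2 fold change, p16-DTR over control, of 16 genes in cDC2, cDC1 and classical monocytes, with bars for 1 SE. Ddit4 and Slamf9 lie above 0 in the 3 types, while Gpr183, Cebpb and Odf2 lie nearer to 0 in cDC1 and monocytes than in cDC2; no interaction was called.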

How the data were processed

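Raw UMI counts per gene and barcode, deposited by the authors without normalization, came from Cell Ranger 8.0.1 with mm10, per the submitters' processing notes; the annotation release and settings are not given in the sources used here. The matrices hold 31054 features. The members, gene lists and tests here were chosen with earlier results of these data known; the state genes were picked after values were seen. Counts of gated cells were summed per library and tested with the edgeR 4.0.16 quasi-likelihood test (R 4.3.3; filterByExpr, TMM, Benjamini-Hochberg adjustment over all genes at 0.05; SE approximated from F); DESeq2 1.42.0 was the alternative. Shares used exact permutation tests. CPM is per 1000000 summed UMIs. Python 3.11.15 was used. The cDC1 gate required at least 2 UMIs of Xcr1 plus Clec9a, the monocyte gate 5 of Ly6c2, the macrophage gate 5 of C1qa. These gates allowed no Cd209a UMI, and those of monocytes and macrophages no Flt3 UMI. Named genes were the 12 with the smallest p (fewer than 12 being called), the 2 most abundant and the smallest-p member of each list, leading genes of the interaction, and genes named after their values were seen. List symbols matched 446 of 448 genes. The labels do not say how mice were assigned. Floors cover counting error only.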

Additional observations from a re-analysis of the deposited data

How the results depend on the processing

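For the counts of called genes and the shares, 56 alternative values were labelled as unchanged, and 7 counts moved. The unchanged counts stayed at 0 and have no direction. The shares kept their direction. Their exact permutation p cannot go below 0.1, so their side of the threshold was fixed in advance. In some settings, given above, the groups of a share no longer overlapped. The count of genes called in cDC2, 0 with edgeR, became 50 with DESeq2, 1 without the cells of other types by the narrower list, which was chosen after seeing the data, and 0 to 1 when each library was left out. The count against cDC1, 0, became 21 with no filter on low counts, and that against classical monocytes 11, and 0 to 1 when each library was left out (1 without control replicate 1 and 1 without control replicate 2); the cause was not tested. The labels do not say whether the replicate numbers pair the mice. Correlations of same-numbered deviations were 0.30, -0.19 and -0.14, which cannot settle it. Among other pairs, p16-DTR replicate 2 with control replicate 3 had 0.37 and p16-DTR replicate 3 with control replicate 2 had 0.24, and the rest were negative. The fit with the replicate block called 0 genes, with 721 at an unadjusted p under 0.05. The difference in the cDC2 share of Ptprc-positive barcodes ranged from -0.232 to -0.0312 percentage points without 1 library, and that of conventional dendritic cells from -11.7 to -4.28. The planned removal of mixed barcodes left 1 to 6 cells per library, and its markers held Ighm and Il7r, found in cDC2 of every library. There the log2 fold change was 0.49 for Cdkn1a, 0.0786 for Fn1, -0.0577 for Cd74, -0.0691 for H2-Aa, -0.255 for B2m and 0.00781 for Csf1r. With the gate after thinning to 5000 UMIs it was -0.0491 for H2-Ob, 0.12 for Ccl6, -0.22 for Bhlhe40, -0.0062 for Tnfaip3 and 0.29 for Ly6c2, which ranged from -0.876 to 0.0469 without 1 library (0.0469 without control replicate 3). Without thinning, the difference in shares was 1.28 for Mki67 with Top2a and 1.25 for Ly6c2.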
